A study of Mus musculus with 200 samples.

Results

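Whole mouse embryos of the N2 backcross generation were harvested at embryonic day 11.5, and the embryos compared here are those of B6 mothers at the early and late end of the somite numbers found in that single day. B6 is C57BL6/J, the inbred reference strain. The fathers were F1 hybrids of B6 and Castaneus (Cast, the inbred strain CAST/EiJ), so that each N2 embryo was homozygous B6 or heterozygous B6/Cast at any autosomal gene. Of 168 N2 embryos in the count table, 55 had a genotype, a labelled B6 mother and a somite number outside the range 47 to 50. The younger group held 30 embryos with 42 to 46 somites and a median of 45. The older group held 25 embryos with 51 to 57 somites and a median of 52. Another 30 embryos of B6 mothers had 47 to 50 somites. They did not enter the contrast between the groups but were used for the slope on somite number, which took all 85, and as a group between the others. Another 62 embryos of F1 mothers (fathered by B6 males) were used for comparison.

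RNA was measured by 3SEQ, which sequences the 3′ ends of polyadenylated transcripts, from single embryos dissected free of membranes and placenta. Levels are given in RPM, the reads of a gene per 1000000 reads on all genes. Depth ranged from 789208 to 4353764 reads on genes in the younger embryos and from 245220 to 3417766 in the older ones. The 4 embryos with fewer than 500000 reads were all older ones in lane J, where 5 RPM can be little more than 1 read. On average 47.6% ± 8.99 (SD, n = 30) of genes were heterozygous in the younger embryos and 47.8% ± 7.25 (SD, n = 25) in the older ones, so that the groups did not differ in their share of Cast alleles beyond the spread between embryos.

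Stage was tied to litter and to lane. The 55 embryos came from 16 litters, and 78.9% of the variance of somite number among the 85 embryos lay between litters. Only litters 3 and 14 held embryos of both groups. Lanes were uneven as well, with 7 younger and 2 older embryos in each of lanes F and K, 1 and 7 in lane I, 1 and 6 in lane J, 1 and 3 in lane H, and 3 and 4 in lane B. Lanes A and N held younger embryos only and lane M an older one only, so that 44 embryos in 6 lanes carried the comparison within lanes. For the other 11 embryos stage and lane cannot be told apart.

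**Figure D1:**
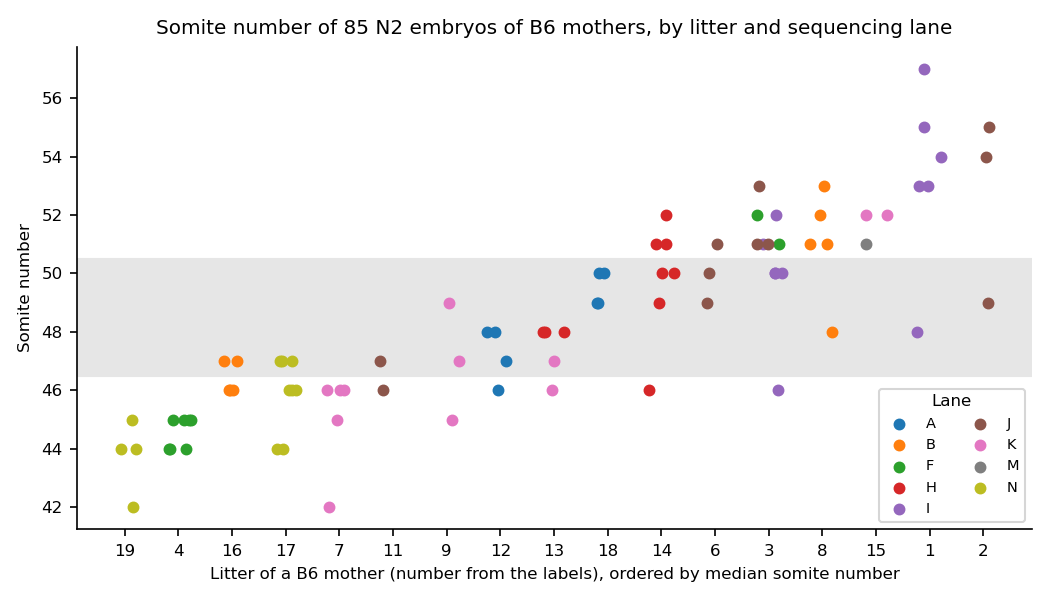
Somite number (vertical axis) of the 85 embryos of B6 mothers, by litter (horizontal axis, ordered by median somite number), with 1 point per embryo coloured by sequencing lane and spread sideways within a litter. The grey band covers 47 to 50 somites, and only litters 3 and 14 have points both below and above it.

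Because embryos of a litter share a mother and often a lane, reads were summed over the embryos of 1 litter, lane and stage. The resulting 21 sums (11 younger, 10 older) were compared with edgeR's quasi-likelihood test with lane as a covariate. The 10 older sums came from only 7 litters, and the fit had no term for litter. Litter 3 gave older sums in lanes F, I and J and a younger one in lane I. Litter 15 gave older sums in lanes K and M. Sums of the same litter are thus not independent, and those in lanes A, M and N carried no information on stage. Of the 10187 genes that averaged 5 RPM or more, 52 were higher in the older embryos at a Benjamini-Hochberg adjusted p under 0.05, which is 0.510% of the genes tested, and 6 were lower, which is 0.0589%. The difference was at least 2-fold in 45 of the higher and 4 of the lower genes. Over all genes the median log2 fold change was -0.00038, and 49.9% of genes had one above 0. The levels of the embryos of both groups overlapped for each of the 58 genes. Treating each embryo as independent and leaving lane out gave 1504 higher and 2425 lower genes, and a Mann-Whitney U test on RPM 1392 and 2371. With each embryo as a unit and lane kept, 253 and 58 passed. On flowcell 1 alone, with 6 older and 11 younger embryos, no gene passed in edgeR's test (203 had an unadjusted p under 0.05). That fit held only 1 sum each from litters 3, 4, 8, 12 and 16, and the sum in lane A carried no information on stage. With terms for lane and stage it could hardly call a gene, so the lack of calls decides nothing. On flowcell 2 alone 34 higher and 5 lower genes passed.

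At this age the mouse embryo replaces the primitive red cells of the yolk sac with definitive red cells made in the liver, the fibres of the lens elongate and fill with crystallins, mesenchyme condenses into the first cartilage, and the let-7 family of microRNAs, which times developmental transitions in many animals, accumulates. Lists of genes for these and other tissues and pathways, 41 in all with 683 tested members, were used to describe the genes that changed. Of the 58 that passed, 33 belonged to a list and 25 to none. All members of a list were measured in the same sums, so a sign they share is not as many separate observations. Since whole embryos were sequenced, a lower level can mean fewer cells of a type or less RNA in each, and these cannot be told apart.

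The lens gave the largest changes. Crystallins are the structural proteins that make the lens transparent. Of 16 listed, 9 averaged 5 RPM or more and were tested. Among these, *Cryga*, *Cryge*, *Crybb1* and *Cryba1* had means under 5 RPM in the younger embryos and met the minimum through the older ones. Of the 9 tested members 7 rose, with a median log2 fold change of 1.79 over the 9 against -0.00038 over all genes. That share and that median therefore depend in part on the minimum. *Cryga*, a gamma crystallin of the differentiating lens fibre (mm9 chr1:65146963-65149947), had no read in 22 of 30 younger embryos and a highest level of 2.53 RPM there. In the older embryos it ranged from 0 to 74.8 RPM with a median of 17.5, and 22 of 25 lay above every younger embryo. The younger group held only 12 *Cryga* reads in all, against 807 in the older group, so the size of the fitted log2 fold change of 5.98 ± 0.69 (SE, adjusted p = 0.000229) depends on very few reads in the younger embryos. *Crybb1*, a beta crystallin, was at 0 to 12.6 RPM (median 1.66) in the younger and 3.68 to 46.6 RPM (median 19.9) in the older embryos. That is an 8.02-fold difference (adjusted p = 0.00169), and 19 of the 25 older embryos exceeded every younger one. *Cryaa*, the lens alpha crystallin and a chaperone, had medians of 5.33 and 25.5 RPM, with 11 older embryos above every younger one (6.48-fold, adjusted p = 0.00308). *Cryge*, another gamma crystallin, had medians of 1.76 and 8.7 RPM, and 18 older embryos stood above all younger ones (5.01-fold, adjusted p = 0.0134). *Crybb3*, *Cryba1* and *Cryba4* rose by 3.46-, 3.43- and 2.86-fold. The members that did not pass were *Crygn*, with a log2 fold change of 1.62, and *Cryab*, with 0.60, which is also made in heart and muscle.

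On the other lists of eye genes no member passed between the groups. Of 14 listed lens genes other than crystallins only 3 averaged 5 RPM or more and none passed. *Pitx3*, a transcription factor of the lens vesicle, had medians of 7.02 and 17.1 RPM with a log2 fold change of 0.88 ± 0.24 (adjusted p = 0.147), and *Bfsp1*, a filament protein of lens fibres, had 0.18 ± 0.31. None of 5 tested retina and eye field genes passed, and their log2 fold changes lay between -0.13 and 0.26. Pigment cell genes were likewise not called (0 of 3). *Rd3*, a gene of photoreceptors that was on no list and was named after its value was seen, was 2.56-fold higher in the older embryos (medians 3.56 and 7.66 RPM, adjusted p = 0.0194).

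The 7 crystallin genes that rose lie on 4 chromosomes. Their proximal promoters are shown here because large Maf transcription factors, known regulators of crystallin genes, bind a site whose core is TGCTGA. The sequences are the 150 bases before each transcription start in RefSeq (GRCm38.p6), written 5′ to 3′ on the strand of the gene, with TGCTGA or its reverse complement TCAGCA in capitals.
*Crybb1*: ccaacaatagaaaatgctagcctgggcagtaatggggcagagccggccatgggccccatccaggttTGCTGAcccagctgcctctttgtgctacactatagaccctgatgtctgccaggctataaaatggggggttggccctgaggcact
*Cryaa*: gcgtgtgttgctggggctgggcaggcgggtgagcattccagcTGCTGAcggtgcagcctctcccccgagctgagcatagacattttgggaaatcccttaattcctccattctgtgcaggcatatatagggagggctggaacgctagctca
*Cryba1*: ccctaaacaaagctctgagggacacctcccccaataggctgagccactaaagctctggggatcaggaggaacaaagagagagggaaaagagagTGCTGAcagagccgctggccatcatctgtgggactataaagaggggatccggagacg
*Cryba4*: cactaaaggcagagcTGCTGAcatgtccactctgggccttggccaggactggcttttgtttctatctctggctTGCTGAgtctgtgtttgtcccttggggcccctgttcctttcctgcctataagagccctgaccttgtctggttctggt
*Crybb3*: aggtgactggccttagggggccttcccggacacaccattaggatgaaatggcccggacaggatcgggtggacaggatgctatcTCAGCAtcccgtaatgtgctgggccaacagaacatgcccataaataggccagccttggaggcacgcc
*Cryga*: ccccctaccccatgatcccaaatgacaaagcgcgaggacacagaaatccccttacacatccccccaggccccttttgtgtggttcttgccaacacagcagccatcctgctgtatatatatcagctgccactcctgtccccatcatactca
*Cryge*: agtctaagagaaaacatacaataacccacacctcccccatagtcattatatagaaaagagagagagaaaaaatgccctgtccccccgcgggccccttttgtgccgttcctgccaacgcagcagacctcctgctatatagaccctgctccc
The motif was found in 5 of the 7, with 2 matches in *Cryba4*. Of 32851 mouse promoters searched over the same 150 bases, 10.1% held it on either strand. A match describes the letters and not a bound site, and the absence of these letters from *Cryga* and *Cryge* says only that they are not in this window. The coordinates are chr5:112255670-112255819, chr17:31677781-31677930, chr11:77725294-77725443, chr5:112252519-112252668, chr5:113081585-113081734, chr1:65103364-65103513 and chr1:65051164-65051313, of which *Crybb1* and *Cryaa* are on the plus strand.

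**Figure D2:**
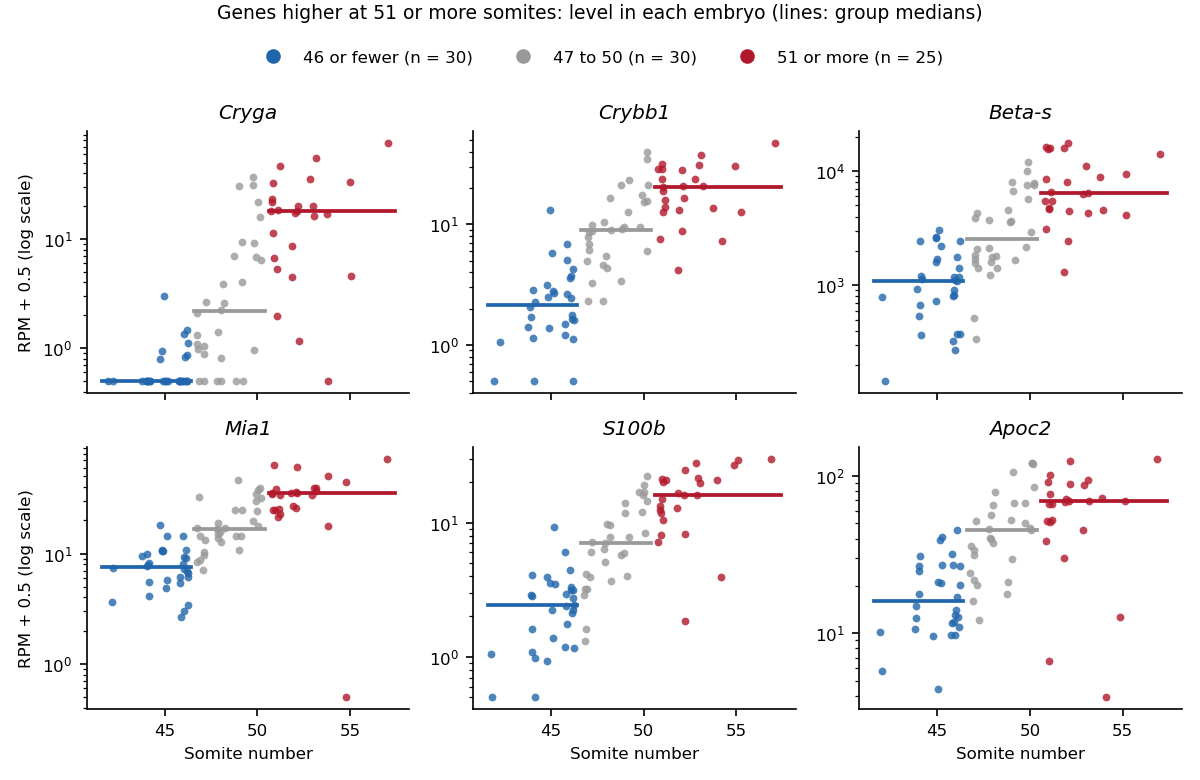
Level of 6 genes (RPM + 0.5, log axis) against somite number in each of the 85 embryos of B6 mothers, coloured by stage group, with a horizontal line at each group's median and points spread sideways within a somite number. All 6 had their middle-group median between those of the younger and older embryos, and *Cryga* sat at or near 0 below 47 somites.

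Among the blood genes the adult beta globins rose. Globin genes carried a median of 7.8% of reads in the younger and 9.05% in the older embryos, with ranges that overlapped widely. These shares add up *Hbb-b1* and *Hbb-b2*, which are 1 measurement (below) that was higher in the older embryos. It therefore enters the sum more than once and widens the difference. *Beta-s*, an adult beta globin gene of the B6 haplotype on chromosome 7, ranged from 144 to 3024 RPM with a median of 1099 in the younger embryos. The older embryos ranged from 1303 to 17564 RPM with a median of 6382, and 23 of 25 exceeded every younger one (log2 fold change 2.86 ± 0.43, adjusted p = 0.00327). *Hbb-b1* and *Hbb-b2*, the other adult beta globin entries, had equal counts in 82 of 85 embryos and never differed by more than 2 reads, so they are 1 measurement. These genes and *Beta-s* are close copies, and the authors discarded reads that matched elsewhere nearly as well, so the split between them is uncertain. This measurement had medians of 1285 and 5587 RPM (3.04-fold, adjusted p = 0.0194). The adult alpha globins *Hba-a1* and *Hba-a2* had only 3.58 and 12.6 RPM and did not pass (log2 fold change 1.04).

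The 3 embryonic globins did not pass. *Hbb-y*, the most abundant of them, had medians of 46241 and 57484 RPM (log2 fold change 0.051 ± 0.28). *Hbb-bh1* had medians of 6101 and 2559 RPM and a log2 fold change of -1.35 ± 0.32 (adjusted p = 0.0677). *Hba-x*, the embryonic alpha-like globin, had medians of 17072 and 10084 RPM and a log2 fold change of -0.61 ± 0.31 (adjusted p = 0.736).

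Of 30 tested genes of the red cell program 1 passed, *Kel*, which encodes the Kell blood group glycoprotein (medians 11.7 and 17.8 RPM, 2.51-fold, adjusted p = 0.0117). The log2 fold change was above 0 in 29 of the 30, with a median of 0.45. *Tspo2*, a relative of the mitochondrial translocator protein found in red cell precursors, belonged to no list and had 0 to 15.2 RPM (median 3.87) in the younger and 3.42 to 50.5 RPM (median 21.3) in the older embryos, a 4.33-fold difference (adjusted p = 0.00308). *Mir451*, the locus of a microRNA of red cell precursors, had medians of 173 and 541 RPM (2.77-fold, adjusted p = 0.0345). It was named after its value was seen, and reads on such an entry come from polyadenylated primary transcripts and not from the mature microRNA. With *Cldn13*, *Tmcc2* and *Aqp1*, likewise named after their values were seen, the rises were 2.64-, 1.82- and 2.11-fold.

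Granule proteins of neutrophils rose in part. Of 8 tested members 3 passed. *Ngp*, neutrophilic granule protein, had 0 to 13.3 RPM (median 2.00) in the younger and 0 to 40.7 RPM (median 9.86) in the older embryos, with 11 older embryos above every younger one (6.14-fold, adjusted p = 0.0053). *Ltf*, lactoferrin, had medians of 1.29 and 8.7 RPM (3.81-fold, adjusted p = 0.046), and the calcium-binding protein *S100a9* had 29.3 and 70.0 RPM (2.63-fold, adjusted p = 0.0349). The early granule enzymes *Mpo* and *Prtn3* did not pass, with log2 fold changes of 0.21 and -0.047. Neither did the other tested members, *S100a8*, *Lcn2* and *Prg2*. The log2 fold change was above 0 in 7 of the 8, with a median of 1.27, and a difference between kinds of granule was not tested. Macrophage genes gave 0 of 13 past the threshold, with log2 fold changes above 0 in all 13 and a median of 0.43. For *C1qb*, a complement subunit made by macrophages, the medians were 99.3 and 160.0 RPM (adjusted p = 0.318). Of 20 endothelial genes none passed, nor did any of 8 megakaryocyte and platelet genes.

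Secreted proteins of the hepatocyte made the broadest group. Of 29 tested members 7 rose, none fell and all 29 had a log2 fold change above 0, with a median of 0.93. *Apoc2*, the activator of lipoprotein lipase (mm9 chr7:20256928-20266772), had 3.91 to 44.9 RPM (median 15.4) in the younger and 3.42 to 127 RPM (median 68.8) in the older embryos. The fitted difference was 3.39-fold (adjusted p = 0.0111), and 19 older embryos were above all younger ones while 1 was below all of them. *Apoa1*, the main protein of high density lipoprotein, had medians of 105 and 327 RPM (2.44-fold, adjusted p = 0.0433). For complement component *C3* they were 13.9 and 39.3 RPM (2.62-fold, adjusted p = 0.0053), and for the haem carrier *Hpx* 4.44 and 8.42 RPM (2.74-fold, adjusted p = 0.0335). *Apoa2*, *Apom* and transferrin (*Trf*) rose by 2.23-, 2.1- and 1.91-fold. The 2 best known fetal liver products did not pass, with a log2 fold change of 1.75 ± 0.43 for albumin (*Alb*, adjusted p = 0.0781) and 0.86 ± 0.22 for alpha-fetoprotein (*Afp*, adjusted p = 0.102). For *Alb* the fold with lane in the fit went against the medians, which were 62.9 RPM in the younger and 55.0 RPM in the older embryos.

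Part of these proteins is also made by the visceral endoderm of the yolk sac, which had been dissected away. Of 6 tested genes of that list 4 are also on the hepatocyte list, *Apoc2* being the 1 that rose. The other two, *Dab2* and *Slc39a8*, had log2 fold changes of -0.17 and 0.00089. All 24 genes of placenta and decidua in the table averaged under 5 RPM, and their summed level was at most 11.5 RPM in any younger and 7.77 RPM in any older embryo.

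Of 14 tested cartilage genes 3 passed, and all 3 encode proteins of the matrix or secreted by chondrocytes. *Mia1*, which encodes a small protein secreted by chondrocytes (mm9 chr7:27953449-27966176), ranged from 2.16 to 17.7 RPM with a median of 7.09 in the younger embryos. In the older embryos it ranged from 0 to 70.9 RPM with a median of 34.5, with 23 of 25 above every younger embryo and 1 shallow library of lane J without a read (log2 fold change 2.33 ± 0.31, adjusted p = 0.00117). *Matn4*, a matrilin of the cartilage matrix, had medians of 2.33 and 11.6 RPM (3.28-fold, adjusted p = 0.00481). Aggrecan (*Acan*), the large proteoglycan of cartilage, had 2.43 and 9.72 RPM, with 21 older embryos above all younger ones (3.02-fold, adjusted p = 0.0133). By contrast the log2 fold changes of *Sox9*, the transcription factor that starts cartilage formation, and of the type II collagen gene *Col2a1* were 0.062 and 0.015, neither past the threshold. *S100b*, a calcium-binding protein of chondrocytes and glia that was on none of these lists, had 0 to 8.84 RPM (median 1.92) in the younger and 1.34 to 29.1 RPM (median 15.7) in the older embryos. It differed by 5.39-fold (adjusted p = 0.000846), and 20 older embryos were above all younger ones. None of 7 tested glial genes passed, among them *Sox10* with a log2 fold change of -0.20. Bone and tendon genes gave 0 of 9, and the joint factor *Gdf5* and the collagen VI chain *Col6a2*, both named after their values were seen, rose by 2.8- and 2.19-fold.

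In the lists of muscle and nerve at most 1 gene each passed, where 0.510% of all genes tested passed as higher. The log2 fold change was above 0 in 31 of 39 sarcomere genes (median 0.42) and 24 of 31 genes of neuron differentiation (median 0.22), against 49.9% of all genes. It was so in 5 of 9 myogenic regulators, 4 of 11 proneural genes and 7 of 16 transmitter genes. *Mybph*, a myosin-binding protein of embryonic skeletal muscle, was the 1 of 39 tested sarcomere genes to pass, with 11.3 to 68.5 RPM (median 33.5) in the younger and 34.8 to 182 RPM (median 106) in the older embryos (2.42-fold, adjusted p = 0.0053). *Msc*, a repressor in the muscle lineage of the head and body, was the 1 of 9 myogenic regulators (1.86-fold, adjusted p = 0.0439). *Neurod2*, a transcription factor of maturing neurons, was the 1 of 11 proneural genes, with 0 to 6.37 RPM (median 3.25) in the younger and 3.42 to 20.5 RPM (median 12.0) in the older embryos. Of these older embryos 21 exceeded every younger one (4.48-fold, adjusted p = 0.0144). Peripherin (*Prph*), an intermediate filament of peripheral and motor neurons, was the 1 of 31 genes of neuron differentiation (1.92-fold, adjusted p = 0.0194), and neuropeptide Y (*Npy*) the 1 of 16 transmitter genes (6.5-fold, adjusted p = 0.0108). No synapse gene passed (0 of 26, with 753 of all 10187 genes at an unadjusted p under 0.05 in edgeR), although 24 of the 26 had a log2 fold change above 0 with a median of 0.30.

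The 6 genes that were lower in the older embryos included *Arid3b* and *Igf2bp1*, both known targets of the let-7 microRNA family. *Igdcc3*, a transmembrane protein of the immunoglobulin family (mm9 chr9:64988961-65033664), ranged from 67.6 to 721 RPM with a median of 207 in the younger embryos and from 44.4 to 157 RPM with a median of 95.6 in the older ones. It had the smallest p of all genes (3.1-fold lower in the fit, adjusted p = 0.000229), though only 4 older embryos lay below every younger one. *Arid3b*, a DNA-binding protein, had 63.9 to 159.7 RPM (median 101) in the younger and 42.7 to 87.1 RPM (median 65.2) in the older embryos, of which 10 lay below all younger ones (1.69-fold lower, adjusted p = 0.0149). *Fignl2*, a member of the AAA ATPases, had medians of 72.1 and 28.6 RPM with 8 older embryos below all younger ones (2.13-fold lower, adjusted p = 0.0149). *Igf2bp1*, an RNA-binding protein of embryonic cells, had strongly overlapping ranges of 238 to 1304 and 236 to 788 RPM with medians of 535 and 472 (1.6-fold lower with lane in the fit, adjusted p = 0.0144). *Hoxb1*, the Hox gene of the fourth rhombomere of the hindbrain, had medians of 8.37 and 2.01 RPM with 20 older embryos below all younger ones (3.27-fold lower, adjusted p = 0.0194).

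On the list of heterochronic and embryonic RNA-binding genes, 2 of 10 tested members (*Igf2bp1* and *Arid3b*) fell, all 10 had a log2 fold change below 0, and the median was -0.60. *Lin28a*, which blocks the maturation of let-7, had medians of 8.5 and 4.03 RPM and a log2 fold change of -1.43 ± 0.33 (adjusted p = 0.0602). *Hmga2*, a chromatin protein and let-7 target, had medians of 112 and 32.5 RPM but a level that went with lane. In lane K its 2 older embryos had 117 and 145 RPM and its 7 younger ones 232 to 433, while in lane B the 4 older ones had 11.6 to 21.2 and the 3 younger ones 23.3 to 28.9. With lane in the fit its log2 fold change was -0.85 ± 0.21 (adjusted p = 0.0781).

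Seed matches of let-7 were looked for after these genes had been seen. Of 11 mature mouse microRNAs in RefSeq with the let-7 seed, 9 are shown (let-7a to let-7i and miR-98) 5′ to 3′, with bases 2 to 8, the seed, in capitals.
mmu-let-7a-5p: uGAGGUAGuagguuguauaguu
mmu-let-7b-5p: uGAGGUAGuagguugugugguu
mmu-let-7c-5p: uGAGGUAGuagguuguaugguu
mmu-let-7d-5p: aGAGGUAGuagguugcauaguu
mmu-let-7e-5p: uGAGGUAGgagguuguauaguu
mmu-let-7f-5p: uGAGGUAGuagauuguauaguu
mmu-let-7g-5p: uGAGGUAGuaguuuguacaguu
mmu-let-7i-5p: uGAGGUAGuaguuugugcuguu
mmu-miR-98-5p: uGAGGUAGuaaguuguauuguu
The complement of that seed in a target is CTACCTC. It was searched on the sense strand in the longest annotated 3′ UTR of each gene in mm9 (GENCODE, NCBIM37), and the first match of each gene that fell and had one is shown with the 15 bases before it and the base after it, on the strand of the gene, the match in capitals.
*Igdcc3*, chr9:65033514-65033536, plus strand: tgtgactctcagcacCTACCTCa
*Igf2bp1*, chr11:95823092-95823114, minus strand: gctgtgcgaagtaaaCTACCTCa
*Arid3b*, chr9:57640371-57640393, minus strand: actgctcaccaagtcCTACCTCa
*Hoxb1*, chr11:96229519-96229541, plus strand: tctttgtatctgcaaCTACCTCa
*Igf2bp1* held 4 matches, *Igdcc3* 2, and *Arid3b* and *Hoxb1* 1 each. *Fignl2* was not matched by name in that annotation and was not examined. Thus 4 of the 5 genes lower in the older embryos with an annotated 3′ UTR held a match, as did 2 of 50 that were higher and 9.76% of all 9930 genes tested with a 3′ UTR. The 3′ UTRs of the higher genes were also shorter, with a median of 242.5 bases against 1084 over all genes. Over all genes the matches went with little difference in fold, the median log2 fold change being 0.00085 in 8961 genes with no match, -0.029 in 866 with 1, -0.031 in 89 with 2 and -0.18 in 14 with 3 or more. Mature microRNAs were not measured. The locus entry *Mirlet7b*, named after its value was seen and whose reads come from polyadenylated transcripts over that locus, had 0 to 16.7 RPM (median 3.36) in the younger and 2.34 to 53.3 RPM (median 18.3) in the older embryos. Its log2 fold change of 1.96 ± 0.47 did not pass (adjusted p = 0.069), while its slope within litters did pass.

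**Figure D3:**
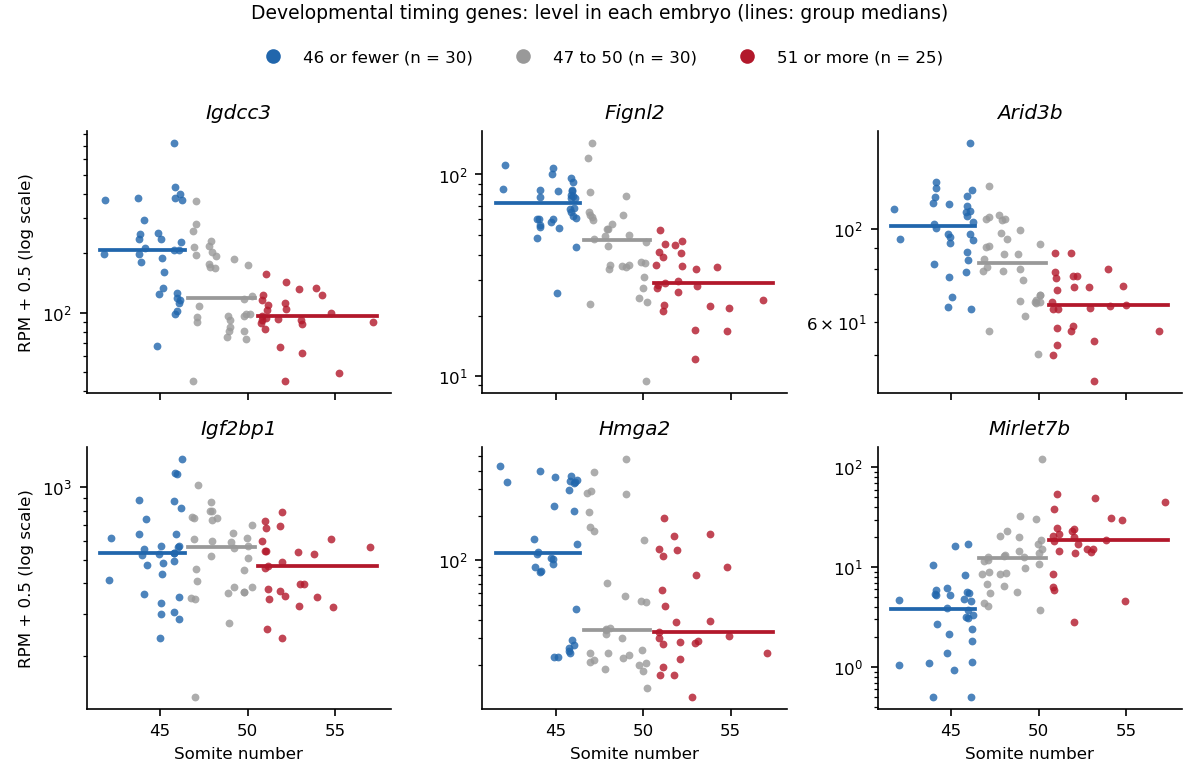
Level of 6 genes (RPM + 0.5, log axis) against somite number in each of the 85 embryos of B6 mothers, with group medians as lines, the stage groups by colour and points spread sideways within a somite number. *Igdcc3*, *Fignl2* and *Arid3b* had lower medians at each later stage and *Mirlet7b* higher ones.

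Among processes shared by all cells no listed gene passed between the groups. Over all genes only 0.510% passed as higher and 0.0589% as lower, so few or no calls are near that share in lists of this size. The log2 fold change was above 0 in 49.9% of all genes. It was so in 10 genes of DNA replication, 7 of mitosis, 38 ribosomal, 45 of oxidative phosphorylation, 5 of glycolysis, 4 of cholesterol synthesis and 6 immediate early and heat shock genes. None passed among 37 genes of DNA replication, 29 of mitosis, 66 cytosolic ribosomal proteins, 69 of oxidative phosphorylation, 26 of glycolysis and the hypoxia response, 20 of cholesterol synthesis and 14 immediate early and heat shock genes, whose list medians lay between -0.27 and 0.091. *Ccnd2*, a G1 cyclin and the most abundant of the mitosis list, had medians of 1300 and 864 RPM but a log2 fold change of -0.45 ± 0.18 once lane was in the fit. *Vim*, an intermediate filament of progenitors and mesenchyme, had medians of 355 and 145 RPM and a log2 fold change of 0.18 ± 0.23. Among patterning genes *Hoxb1* was the only one of 17 anterior Hox genes to pass, and 0 of 10 posterior Hox, 0 of 27 limb bud, 0 of 14 segmentation clock and tailbud, 0 of 22 neural progenitor, 0 of 10 inner ear, 0 of 8 kidney, gonad and adrenal, 0 of 3 pituitary and thyroid and 0 of 13 epidermal genes did. *Nes*, nestin of neural progenitors, had a log2 fold change of -0.46 ± 0.15 (adjusted p = 0.289).

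**Figure D4:**
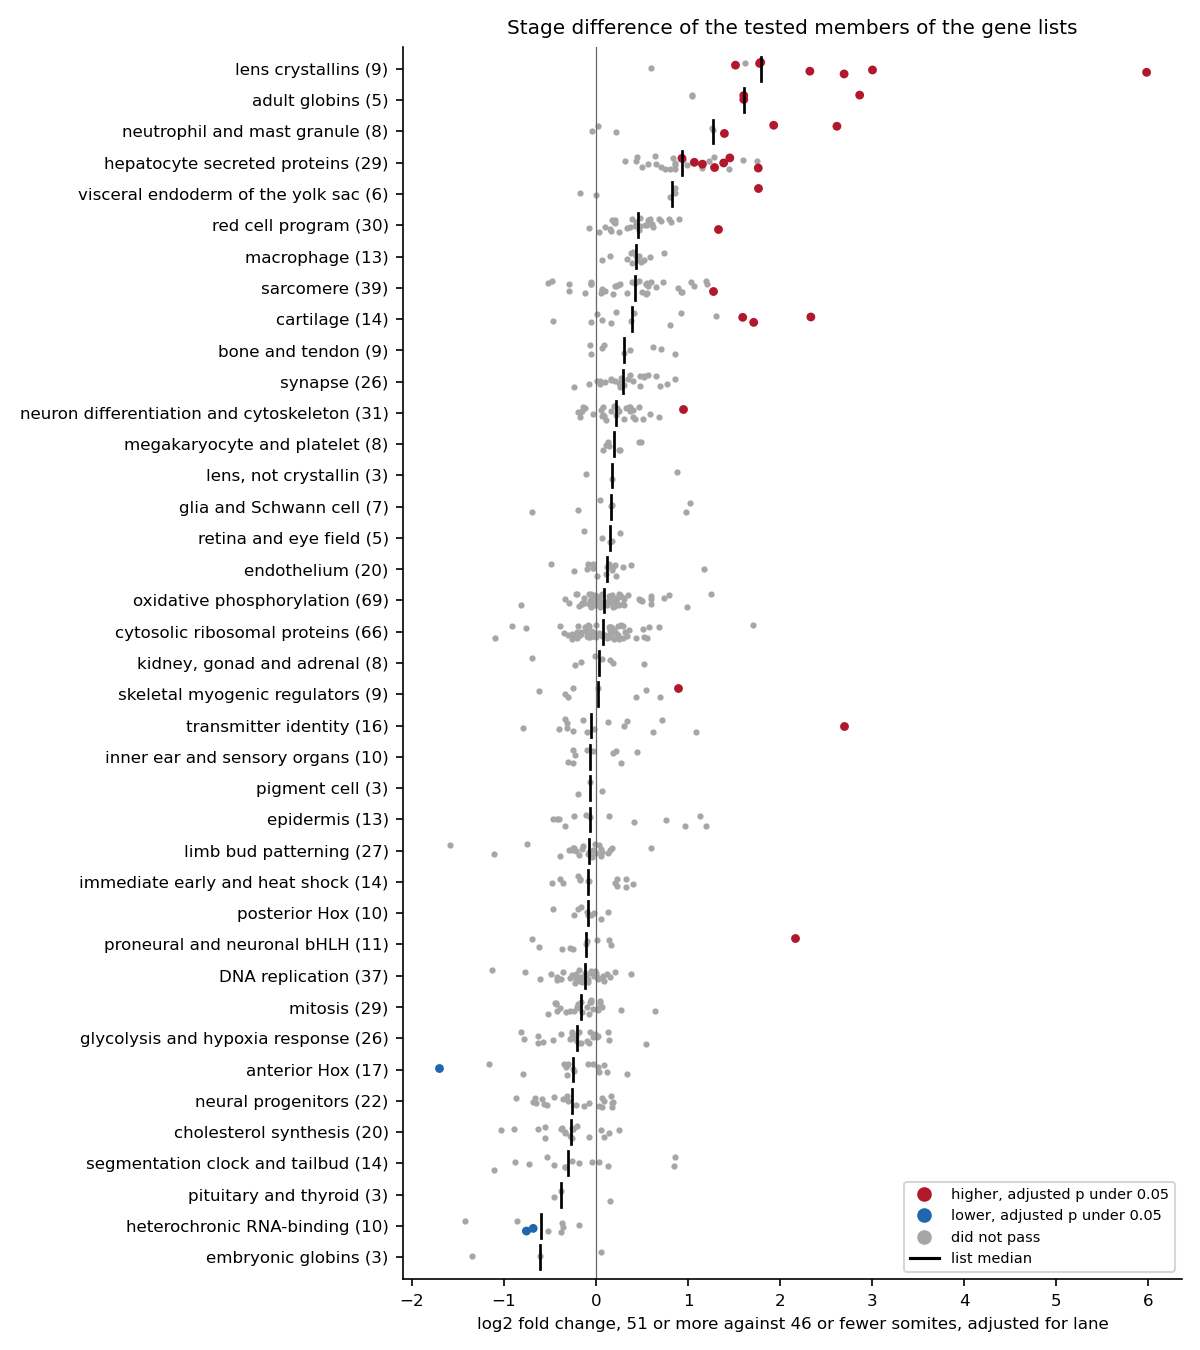
Log2 fold change, older against younger embryos with lane in the fit (horizontal axis), of each tested member of the gene lists shown, all with 3 or more tested members, whose number stands in brackets. Red and blue points are genes higher and lower at an adjusted p under 0.05, grey points did not pass, and black bars are list medians, which were highest for lens crystallins, adult globins, and neutrophil and mast granule genes.

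A slope on somite number inside litters asked whether the same genes move when embryos of 1 litter and 1 lane are compared with each other. The 85 embryos fell into 21 such groups, in which 19.7% of the variance of somite number remained, with a median range of 2 somites. These embryos include the 55 above, so the slopes are not independent of the stage contrast. In 10066 tested genes 82 rose with somite number, 0.815% of those tested, and 60 fell, 0.596%. The steepest called rise was that of *Cryga*, by 0.59 ± 0.11 (SE) on the log2 scale per somite (adjusted p = 0.00052). *Mia1* rose by 0.31 ± 0.046 per somite (adjusted p = 1.27e-05) and *Neurod2* by 0.37 ± 0.058 (adjusted p = 5.17e-05). *Igdcc3* fell by 0.28 ± 0.034 per somite (adjusted p = 3.95e-08) and *Fignl2* fell by 0.17 ± 0.03. All 7 crystallins named above, the 3 adult beta globin entries, *Kel* and the 3 cartilage matrix genes also passed here with positive slopes. *Mirlet7b* rose by 0.25 ± 0.071 per somite (adjusted p = 0.0478).

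The within-litter calls also included genes that had not passed between the groups, and left out some that had. None of the 3 neutrophil genes passed there, with slopes of 0.21, 0.18 and 0.16 on the log2 scale per somite for *Ngp*, *Ltf* and *S100a9*. Of the 29 hepatocyte genes 4 rose (*Apoc2*, *Alb*, *Itih3* and *Proc*), and the slope of *Alb* was 0.28 ± 0.067 (adjusted p = 0.0145). The 7 sarcomere genes that rose belong to skeletal muscle, namely *Myh8*, *Tnni2*, *Atp2a1*, *Acta1*, *Mybph*, *Kbtbd5* and the acetylcholine receptor subunit *Chrng*. By contrast *Myh6*, the atrial myosin heavy chain, fell by 0.12 ± 0.029 per somite (adjusted p = 0.0132). The embryonic globin *Hba-x* fell by 0.15 ± 0.035 (adjusted p = 0.0109). In the segmentation clock and tailbud list *Fgf8*, the growth factor of the tail bud and limb ridge, fell by 0.18 and *Tcf15*, a factor of the paraxial mesoderm, by 0.17 ± 0.028 (adjusted p = 0.000127). Nestin (*Nes*) fell by 0.087 ± 0.02 (adjusted p = 0.00744), and the neuronal tau gene *Mapt* rose by 0.11 ± 0.022 (adjusted p = 0.00147). The lens factor *Pitx3* rose by 0.13 ± 0.035 (adjusted p = 0.0329). On the lists of shared processes 1 gene each of DNA replication (*Rfc2*), oxidative phosphorylation (*Ndufs6*) and glycolysis (*Slc16a3*) fell, by 0.084, 0.12 and 0.12 per somite. The genes of this paragraph other than *Hba-x*, *Nes* and *Pitx3* that had not passed in the stage contrast were named after their values were seen.

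The 58 genes were also read in embryos that the stage contrast did not use. The 30 embryos of B6 mothers with 47 to 50 somites share litters and lanes with the others. Their median RPM lay between the medians of the younger and older embryos for 54 of the 58. That count is no independent support, since the 58 were picked for a difference between those same outer groups. Over all genes tested the share was 45.2%, but these were not picked for such a difference. In the 62 embryos of F1 mothers, from other litters, the within-litter slope had the direction of the stage contrast in 54 of 58 genes, or 93.1%, against 59.9% of all genes tested. For 20 of the 58 the unadjusted p of that slope was under 0.05 in the same direction, against 6.53% of all genes. No gene passed the adjusted threshold among those 62 embryos alone (0 of 10156 in edgeR's test, with 930 at an unadjusted p under 0.05). *Cryga* had a slope of 0.50 ± 0.19 on the log2 scale per somite there, *Fignl2* -0.21 ± 0.054 and *Igdcc3* -0.16 ± 0.043. Some of the 54 agreed in sign alone, with slopes smaller than their SE. These included *Kel* (0.031 ± 0.076), *Cldn13* (0.0099 ± 0.071) and *Tmcc2* (0.0094 ± 0.036). They also included *Hbb-b1* and *Hbb-b2* (0.026 ± 0.059), which are 1 measurement but count as 2 of the 58. The 4 genes with the opposite sign were *Igf2bp1* (0.037 ± 0.039), *Hoxb1* (0.034 ± 0.074), *Mir451* (-0.023 ± 0.08) and *Vstm2l* (-0.024 ± 0.04). The difference of slopes between embryos of B6 and F1 mothers passed for 1 of 10040 genes, 0.00996%, which was *Nedd4l*, a ubiquitin ligase and none of the 58. Its slope was 0.088 ± 0.021 per somite in the 85 embryos and -0.14 ± 0.046 in the 62. In all, 611 genes had an unadjusted p under 0.05 for the difference.

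**Figure D5:**
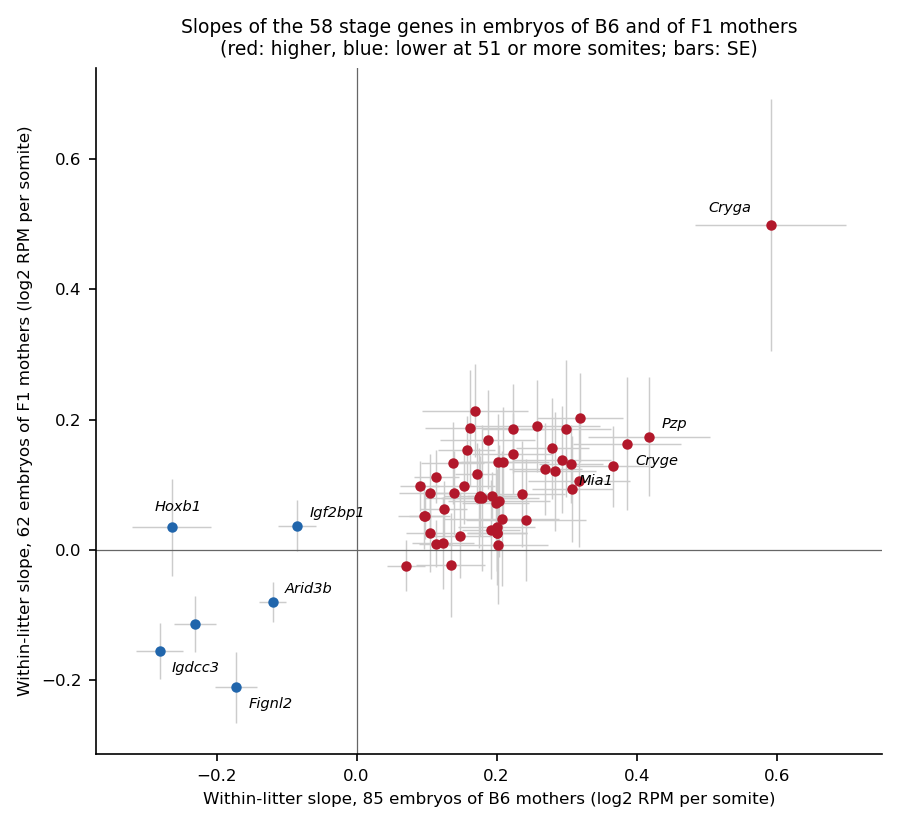
Within-litter slope on somite number of the 58 stage genes in the 85 embryos of B6 mothers (horizontal axis) and the 62 embryos of F1 mothers (vertical axis), in log2 RPM per somite, with SE bars. Red genes were higher and blue genes lower at 51 or more somites, and 54 of 58 have the sign of their stage difference on the vertical axis.

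Litters 3 and 14 show the contrast between litter-mates in 1 lane, with no test, since each held 1 embryo of 46 somites. In lane I the younger embryo of litter 3 had 397 RPM of *Igdcc3* and its 2 older litter-mates 92.2 and 95.6. In lane H the younger embryo of litter 14 had 721 RPM and its 3 older litter-mates 111 to 157. For *Crybb1* the younger embryos had 0.701 and 0 RPM and the older ones 20.4 to 31.1 and 12.0 to 23.3. *Beta-s* was at 2464 RPM against 4465 to 5445 in litter 3 and at 369.7 against 4789 to 8049 in litter 14. These embryos entered the contrast that picked the 58 genes, so their agreement with it was partly built in and is no separate support. In the direction of the contrast, the younger embryo lay beyond all its older litter-mates for 57 of the 58 in litter 3. In litter 14 it did for 55, and in both litters for 54. Over all genes tested the share was 51.5% in litter 3 and 44.0% in litter 14, and none was computed for both together.

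The number of called genes depended on single litters more than their direction did. Without litter 15, which held both older embryos of lane K, 3 genes were higher and 1 lower, and without litter 3, 8, 14 or 16 between 22 and 31 were higher and 2 lower. Without lane J, where libraries were shallow, 37 and 3 passed. All 58 kept their direction without each of the 16 litters in turn, and *Cryga*, *Igdcc3*, *Mia1* and *S100b* passed every time.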

How the data were processed

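Single N2 embryos of embryonic day 11.5 were profiled by 3SEQ. The authors aligned reads with Bowtie2 to mm9 (B6) and to a Cast genome made from it, discarded reads with a close second hit, and deposited raw counts of exonic reads per RefSeq gene, without normalization. Maternal strain, litter, lane and somite number were taken from the labels, and nothing says more of litters than their number. RPM was computed here from those counts over all genes in the table.

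Counts were tested with edgeR 4.0.16 (R 4.3.3, TMM scaling, quasi-likelihood F test, Benjamini-Hochberg adjustment, genes averaging 5 RPM or more). The stage contrast used sums per litter, lane and stage with lane as covariate. The slope used single embryos with a term for each litter in a lane. The stage contrast was recomputed with DESeq2 1.42.0, limma 3.58.1 voom, other scalings and minimums, single embryos, each flowcell and each litter left out. The slope was recomputed with RPM scaling, a lower minimum, voom and each litter left out, and the difference between mothers with the first 3 of these. A run without lane J and one with globins left out of the total were added after the data were seen. On simulated data the stage contrast recovered 14% of genes changed by 0.5 on the log2 scale, 64% at 1 and 100% at 2, with 3 false calls in 10187 genes. The slope recovered 34% at 0.1 per somite and 86% at 0.2, with 10 false calls in 10066. Both simulations drew independent counts at the observed mean shares, depths and dispersions, with no lane or litter effect. Their recovery and false calls therefore do not cover such effects in the real data.

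Genes were named by a rule: the 10 highest ranked by p in each direction, up to 4 called members of each list or its 2 most abundant where none passed, and genes differing between mothers. Further genes of a list, and those said to be so, were named after their values were seen. The groups, lists and members were chosen with earlier results of these data known. Depth was 245220 to 4353764 reads on genes per embryo, which sets the counting error of low genes. Promoters, microRNAs and their seed came from RefSeq (GRCm38.p6 for coordinates) and 3′ UTRs from GENCODE on mm9. Allele-specific counts and F1 embryos were not used here. The values of 1 gene and of its list are not reported here.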

Additional observations from a re-analysis of the deposited data

Results flagged for a closer look

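In the 10 sums of older embryos, 10 of 81 named genes had a sum far from the others by Dixon's criterion, which chance meets in about 1 of 20 groups. Litter 2 in lane J, with 2 shallow libraries, had the lowest level of *Apoa1* (126 RPM, the nearest 245), *Apoc2* (7.44 RPM, the nearest 30.01), *Mia1* (9.30 RPM, the nearest 22.9) and *Bfsp1* (0 RPM, the nearest 4.78), and the highest of *Hsp90ab1* (14932 RPM, the nearest 7848). Litter 3 was lowest in lane F for *Egfl7* (59.1 RPM, the nearest 115) and *Nrxn2* (190.6 RPM, the nearest 299) and in lane J for *Oc90* (11.3 RPM, the nearest 20.4). Litter 15 in lane K was lowest for *Cox4i1* (1753 RPM, the nearest 2560), and litter 6 in lane J highest for *Sox10* (50.2 RPM, the nearest 32.1).

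The slope of *Nedd4l*, a ubiquitin ligase, was greater in embryos of B6 than of F1 mothers by 0.23 on the log2 scale per somite (edgeR interaction test, adjusted p = 0.0123). It was the 1 gene whose slopes differed, and with RPM scaling none passed.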

How the results depend on the processing

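The main counts were 52 higher and 6 lower genes between stages. They became 253 and 58 with embryos as units and lane as covariate, 1504 and 2425 without lane, 34 and 2 for sums without lane, 109 and 34 in DESeq2, 125 and 20 in limma voom with litter as a random effect, 79 and 11 with any gene with a read, 1392 and 2371 in the Mann-Whitney U test and 474 and 239 in Spearman's correlation with lane regressed out. Flowcell 1 alone, with too few sums to call genes reliably, gave 0 and 0 (203 genes at an unadjusted p under 0.05). Flowcell 2 alone gave 34 and 5. Leaving out each litter gave 3 to 71 higher and 1 to 11 lower genes, fewest without litter 15. Without lane J, chosen after seeing the data, 37 and 3 passed. All 58 genes passed in DESeq2, with embryos as units and lane, and with globins out of the total, 55 with RPM scaling, 54 in voom, 51 with RLE scaling, 35 on flowcell 2 and 34 without lane J. For sums without lane 31 of the 58 passed, *Igdcc3* not among them, and on flowcell 1 alone 0 did. The cause of these differences was not tested.

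The slope counts of 82 rising and 60 falling became 147 and 38 with RPM scaling and 129 rising in voom, and 40 to 128 and 30 to 93 with each litter left out. The 1 gene differing between mothers became 0 with RPM scaling (511 at an unadjusted p under 0.05), 3 with a minimum of 1 RPM and 2 in voom. A comparison of 45 or fewer with 53 or more somites could not be fitted with lane, since no lane held both. No paired analysis was possible because the replicate numbers only name embryos. Litter could serve as a block between the stages in litters 3 and 14 alone, and all litters entered the slope as blocks. Shallow libraries of lane J limit genes near 5 RPM.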
